A study of Mus musculus with 12 samples.

Results

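SnoN, the product of Skil, and its relative Ski hold down genes by bringing corepressor complexes to the SMAD proteins of the TGF-beta pathway. The genes described here are 8 that encode parts of these complexes: the scaffold Ncor1, the scaffolds Sin3a and Sin3b, the histone deacetylases Hdac1, Hdac2 and Hdac3, and the WD40-repeat proteins Tbl1x and Tbl1xr1. They were taken by name from 53379 genes in the count tables, and all 8 passed the filter on low counts that kept 13442 genes. RNA came from mice of the C57BL/6 strain on postnatal day 6. It was sequenced from external granule layer, where the precursors of granule neurons divide, cut by laser from central lobules of the cerebellum. The knockout group (KO) holds 6 libraries from mice with a conditional SnoN knockout, numbered 2, 3, 4, 5, 6 and 8, and the wild-type group (WT) holds 6 libraries from control littermates, numbered 1, 2, 3, 5, 6 and 7. The Cre driver, the deleted exons and the genotype of the littermates beyond the words wild type are not stated in the labels, nor is it said whether each library is 1 animal.

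Corepressors of this kind are brought to genes by other proteins that bind DNA. NCoR forms a complex with HDAC3, TBL1 (Tbl1x), TBLR1 (Tbl1xr1) and GPS2, and binding to NCoR switches on the activity of HDAC3. Sin3 proteins are the platform of another complex, in which HDAC1 and HDAC2 remove acetyl groups from histone tails, and the same 2 enzymes also work in the NuRD and CoREST complexes. In mouse brain, HDAC1 and HDAC2 stand in for each other during the formation of neurons from precursors.

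The comparison used 5 KO and 5 WT libraries, since the labels mark KO4 and WT2 as outliers of a robust PCA. KO2 carries a wild-type genotype tag although its title says knockout, and was kept as KO. Gene counts summed to between 7520076 and 15083086 per library. Skil itself lay between 20.9 and 36.7 CPM in the 5 KO libraries, against 38.5 to 57.8 CPM in the 5 WT libraries, where CPM is counts per 1000000 reads counted in genes, scaled by TMM factors. KO4 had 14.0 CPM and WT2 had 76.5 CPM. The log2 difference of Skil was -0.70 (SE 0.15) and missed the threshold (edgeR adjusted p = 0.124; exact permutation p = 0.00794). With the GC trend described below removed it was -0.93 (edgeR adjusted p = 0.00104), and Skil also passed in DESeq2 (adjusted p = 0.00924). In all 12 libraries with that trend removed it was -1.04 (edgeR adjusted p = 0.00504). Skil passed with no filter on low counts (edgeR adjusted p = 2.6e-04) and without KO5 (edgeR adjusted p = 0.00275), fits that called 3.49% and 22.9% of genes. It did not pass in the other alternatives, among them all 12 libraries with the trend left in (-0.96, edgeR adjusted p = 0.999) and KO2 counted as wild type (-0.69, edgeR adjusted p = 0.792). All 15 markers of the granule lineage passed the filter, among them Atoh1, which defines the precursors, at 87.1 to 114 CPM in KO and 75.1 to 115 CPM in WT. The 15 summed to 5754 to 9603 CPM in KO and 5297 to 7562 CPM in WT. Their means went both ways, as for Neurod1 (3628 CPM in KO, 2582 CPM in WT) and Barhl1 (117 CPM in KO, 158 CPM in WT). P-values set the difference between the groups against the spread between libraries, part of which may be technical.

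Hdac1 needs a caution before its values. Of the 1989 windows of 50 bases in its longest transcript, 1167 (58.7%) also occur in transcripts of 3 annotated pseudogenes, and 1121 of them in Gm10093, a processed copy on chromosome 17 (78491582 to 78493025 in GRCm38, plus strand). Over 1444 bases aligned without gaps, Gm10093 is identical to the longest open reading frame of Hdac1 at 1435 (99.4%). A stretch of 90 bases that holds 4 of the differing bases, in capitals, shows where the copies can be told apart, with long identical runs between (Hdac1 from position 460 to 549 of the GENCODE M21 transcript; Gm10093 at chr17:78491957-78492046).
Hdac1: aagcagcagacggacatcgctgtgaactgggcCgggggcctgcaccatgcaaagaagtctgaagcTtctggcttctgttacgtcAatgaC
Gm10093: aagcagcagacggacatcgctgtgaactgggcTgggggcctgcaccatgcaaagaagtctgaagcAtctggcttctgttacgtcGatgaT
The tables list reads placed in several positions apart from the gene counts, so the level of Hdac1 relative to other genes is uncertain and may be set too low. Gm10093 had 0.236 to 1.08 CPM over the 12 libraries. For Hdac2, Hdac3, Sin3b and Tbl1x no window was shared, and for Ncor1, Sin3a and Tbl1xr1 the shares were 1.02%, 2.09% and 0.220%. The kit does not mark strand, and 0.65% of the exon bases of Ncor1 and 3.96% of those of Sin3a also lie in exons of other genes, some of them on the opposite strand.

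Promoter sequence is shown for Hdac2 and Tbl1xr1, which have the lowest GC content of the 8 transcripts and, as described below, similar relations to the GC trend of the libraries. The 250 bases before the RefSeq start (GRCm38.p6, plus strand) are chr10:36974294-36974543 for Hdac2 and chr3:22076402-22076651 for Tbl1xr1, and the capitals mark a GC box on the minus strand.
Hdac2: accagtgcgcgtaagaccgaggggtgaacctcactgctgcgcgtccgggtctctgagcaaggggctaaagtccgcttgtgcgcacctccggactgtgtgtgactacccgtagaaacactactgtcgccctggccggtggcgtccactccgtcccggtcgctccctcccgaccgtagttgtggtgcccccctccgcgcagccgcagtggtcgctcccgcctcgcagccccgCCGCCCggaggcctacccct
Tbl1xr1: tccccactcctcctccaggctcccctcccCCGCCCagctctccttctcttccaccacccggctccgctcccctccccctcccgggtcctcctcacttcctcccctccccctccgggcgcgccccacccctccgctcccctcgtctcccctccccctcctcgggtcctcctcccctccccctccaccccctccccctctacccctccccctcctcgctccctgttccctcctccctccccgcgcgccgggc
RefSeq windows (250 bases before to 50 after the start) were matched for 6 of the 8 genes, 8 windows in all. In the windows of Hdac2 and Tbl1xr1 there are 36 and 25 CpG dinucleotides, against a median of 7 over 32851 promoters. The GC box (GGGCGG, either strand) occurs in 7 of the 8 windows and in 35.7% of all promoters. The CCAAT box (CCAAT) occurs in 2 of the 8 windows, both of Sin3a, and in 37.4% of all promoters. The ETS site CCGGAAG and the YY1 site AAGATGGCG occur in 1 window each, that of Ncor1 at chr11:62457283-62457582, and in 8.86% and 1.40% of all promoters. CRE (TGACGTCA, 1.79% of all promoters), E2F (TTTCCCGC, 1.07%, and TTTGGCGC, 0.514%), the NRF1 site (0.971%), E-box (CACGTG, 7.15%) and the SMAD palindrome GTCTAGAC (0.213%) occur in none of the 8.

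The length used for each gene counts all of its annotated exon bases. Per kilobase of exon, Hdac2 was by far the most abundant of the 8 genes. It averaged 199 ± 49.4 CPM per kb in KO and 146 ± 15.1 CPM per kb in WT (SD, n = 5 each, as below), and its WT level stood at the 97.5th percentile of genes tested. Hdac3 followed at 45.3 ± 3.70 CPM per kb in KO and 44.2 ± 2.27 in WT, then Sin3b at 26.2 ± 1.63 CPM per kb in KO and 28.7 ± 2.16 in WT. With these lengths no library of one of these 3 reached the next one's range in either group. The longest transcripts of Hdac3 and Sin3b are shorter, at 3585 and 4115 bases against 4054 and 7354 exon bases. Levels per transcript length were not computed, and the order of the genes may differ with them. Sin3a had 16.8 ± 2.97 CPM per kb in KO and 14.7 ± 2.23 in WT, Ncor1 12.2 ± 1.28 in KO and 10.9 ± 0.624 in WT, and Tbl1x 10.1 ± 0.637 in KO and 11.9 ± 1.17 in WT. Neighbours among these 3 overlapped, since WT values ran from 12.7 to 18.4 CPM per kb for Sin3a, 11.0 to 13.9 for Tbl1x and 10.1 to 11.4 for Ncor1. Tbl1xr1 (7.53 ± 0.953 in KO, 6.29 ± 0.834 CPM per kb in WT) and Hdac1 (6.50 ± 0.457 in KO, 5.97 ± 0.552 CPM per kb in WT) were lowest and overlapped each other. Hdac1 stands there with the caution given above.

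None of the 8 genes passed an adjusted p of 0.05 in the comparison of KO with WT. By the edgeR test 0 of 8 were called, beside 0.0223% of all genes tested. DESeq2 called 0 of 8, beside 4.71% of genes, and limma voom on 12 libraries called 0 of 8, beside 0.0225% of genes. At an unadjusted p under 0.05, Hdac2 and Tbl1xr1 were higher in KO and Tbl1x was lower, which is 3 of 8 beside 21.8% of all genes tested (11.8% higher, 9.97% lower). DESeq2 gave the same 3 genes at that level, beside 27.1% of genes, and limma voom gave Hdac2, Tbl1xr1 and Sin3a, all higher, beside 26.8% of genes. The median log2 fold change of the 8 was 0.15, with 6 above and 2 below 0, beside a median of 0.00 for all genes tested. For 0 of 8 did the KO and WT libraries separate without overlap, which 2.35% of all genes tested did. With all 12 libraries in the fit, 0 of 8 had an unadjusted p under 0.05, beside 3.47% of genes, and 0 were called, beside 0.00751%. Without KO5 2 of 8 were called, Hdac2 and Tbl1xr1, in a fit that called 22.9% of all genes tested. With KO2 counted as wild type the log2 fold changes of Ncor1, Sin3a and Sin3b were 0.07, 0.09 and -0.08, closer to 0 than the 0.17, 0.19 and -0.13 given below.

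**Figure D1:**
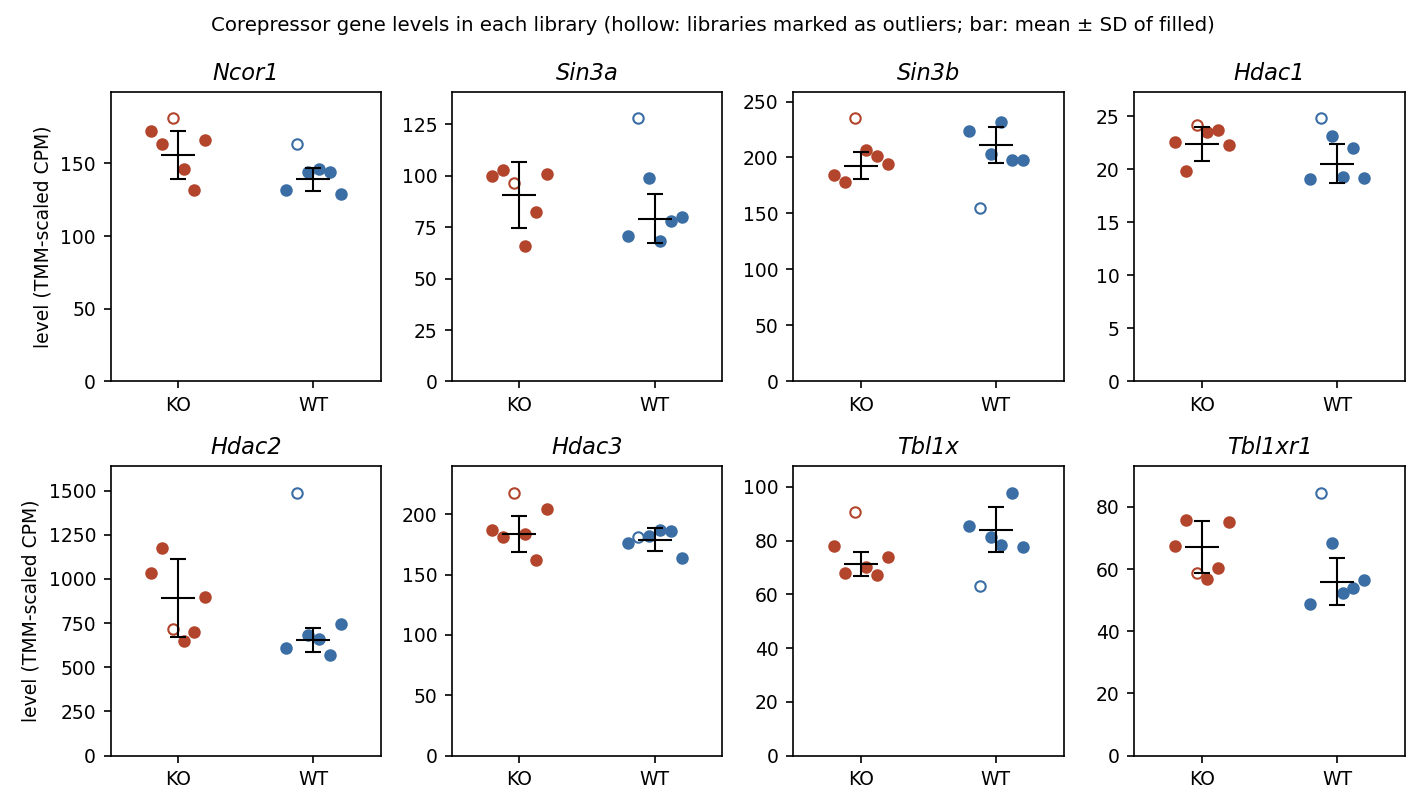
Level of each corepressor gene (vertical axis, TMM-scaled CPM, from 0) in each KO library (red, left) and WT library (blue, right). Bars give the mean ± SD of the 5 filled points per group, and hollow points are KO4 and WT2; Hdac2 is highest in WT2 (1489 CPM), and the filled KO and WT points overlap for every gene.

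Hdac2, the deacetylase shared by the Sin3, NuRD and CoREST complexes (ENSMUSG00000019777.16, chromosome 10 of GRCm38, the build of all positions here, 36974544 to 37001889, plus strand), had the largest fold change of the 8. It had 1174 CPM in KO3, 1035 in KO2, 896 in KO8, 699 in KO6 and 650 in KO5, against 746 in WT7, 684 in WT3, 661 in WT5, 610 in WT1 and 571 in WT6. KO2, KO3 and KO8 lay above all 5 WT libraries, while KO5 and KO6 lay within the WT range. The means were 891 ± 221 CPM in KO and 655 ± 67.6 CPM in WT, or 0.45 on the log2 scale (SE 0.15, unadjusted p = 0.00665, adjusted p = 0.139). A two-sided exact permutation test gave p = 0.0635, where 0.00794 is the smallest p that 5 against 5 libraries allow. The order was opposite in the marked pair, with 719 CPM in KO4 and 1489 CPM in WT2, and with them the log2 fold change was 0.12 (SE 0.22). With KO2 counted as wild type, after its genotype tag, the log2 fold change was 0.25. Hdac2 passed without KO5 (log2 fold change 0.54, adjusted p = 0.00357, 22.9% of genes called). It also passed with no filter on low counts (0.45, adjusted p = 0.00491, 3.49% of genes called). Over all alternatives its adjusted p ranged from 0.00357 to 1.0.

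Hdac1, the closest relative of Hdac2 (ENSMUSG00000028800.15, chromosome 4, 129516104 to 129542713, minus strand), ran from 19.8 to 23.7 CPM in KO and from 19.1 to 23.1 CPM in WT. The 5 KO libraries were all above the WT median. The means of 22.4 ± 1.57 CPM in KO and 20.6 ± 1.90 CPM in WT differed by 0.13 on the log2 scale (SE 0.12, adjusted p = 0.555). Hdac3, the enzyme of the NCoR complex (ENSMUSG00000024454.15, chromosome 18, 37935844 to 37955016, minus strand), had the smallest fold change of the 8 genes. It ran from 162 to 204 CPM in KO and from 164 to 187 CPM in WT, a log2 difference of 0.04 (SE 0.09, adjusted p = 0.842). Hdac3 had 218 CPM in KO4 and 181 CPM in WT2, and Hdac1 had 24.2 CPM in KO4 and 24.8 CPM in WT2.

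The Sin3 scaffolds had fold changes of opposite sign, and neither passed. Sin3a (ENSMUSG00000042557.14, chromosome 9, 57072040 to 57128366, plus strand) ran from 65.8 to 103 CPM in KO and from 68.5 to 98.9 CPM in WT. KO2, KO3 and KO8 were again the high KO libraries, though only just above WT3, and KO5 was below every WT library. The log2 fold change was 0.19 (SE 0.13, adjusted p = 0.407), and 0.07 over 12 libraries, 0.29 without KO5 and 0.03 with the replicate number as a block. Sin3b, the other Sin3 scaffold (ENSMUSG00000031622.16, chromosome 8, 72723285 to 72758201, plus strand), ran from 178 to 207 CPM in KO and from 198 to 232 CPM in WT. For Sin3b those same 3 KO libraries lay below every WT library, and the log2 fold change was -0.13 (SE 0.09, adjusted p = 0.412), and -0.02 over 12 libraries. Sin3a had 96.4 CPM in KO4 and 128 CPM in WT2, and Sin3b had 235 CPM in KO4 and 155 CPM in WT2, the opposite order in both cases.

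Ncor1, the scaffold that binds HDAC3 (ENSMUSG00000018501.17, chromosome 11, 62316426 to 62458541, minus strand), ran from 132 to 172 CPM in KO and from 129 to 146 CPM in WT. KO2, KO3 and KO8 lay above the WT range. Its log2 fold change was 0.17 (SE 0.10, adjusted p = 0.327; exact permutation p = 0.0635), and 0.16 (SE 0.10) with the marked libraries included. KO4 had 181 CPM and WT2 had 163 CPM.

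The 2 WD40 proteins of the NCoR complex, which help exchange corepressors for coactivators, also had fold changes of opposite sign. Tbl1x, an X-linked gene (ENSMUSG00000025246.13, 77511013 to 77662983, plus strand), had 78.0 CPM in KO2, 73.8 in KO8, 70.2 in KO5, 67.8 in KO3 and 67.2 in KO6, against 97.9 in WT6, 85.4 in WT1, 81.2 in WT3, 78.4 in WT5 and 77.8 in WT7. Only KO2 reached the WT range, just above WT7. The log2 fold change was -0.24 (SE 0.10, unadjusted p = 0.0301, adjusted p = 0.189), with an exact permutation p of 0.0159. KO4 had 90.8 CPM and WT2 had 63.2 CPM, the opposite order, and the log2 fold change over 12 libraries was -0.11 (SE 0.12). With the summed level of Y-linked genes as a covariate for sex it was -0.21 (SE 0.10).

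Tbl1xr1 (ENSMUSG00000027630.13, chromosome 3, 22076652 to 22216594, plus strand) had 75.7 CPM in KO3, 75.1 in KO8, 67.4 in KO2, 60.3 in KO6 and 56.9 in KO5, against 68.4 in WT3, 56.4 in WT7, 53.8 in WT6, 52.4 in WT5 and 48.9 in WT1. All 5 KO libraries lay above 4 of the WT libraries, and WT3 lay among the KO values. The log2 fold change was 0.26 (SE 0.12, unadjusted p = 0.0393, adjusted p = 0.208; exact permutation p = 0.0635). KO4 had 58.6 CPM and WT2 had 84.6 CPM, the opposite order, and the log2 fold change over 12 libraries was 0.11 (SE 0.14). Without KO5 it was 0.32 with an adjusted p of 0.0423, in the fit that called 22.9% of all genes tested. Over all alternatives the adjusted p ranged from 0.0423 to 1.0.

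**Figure D2:**
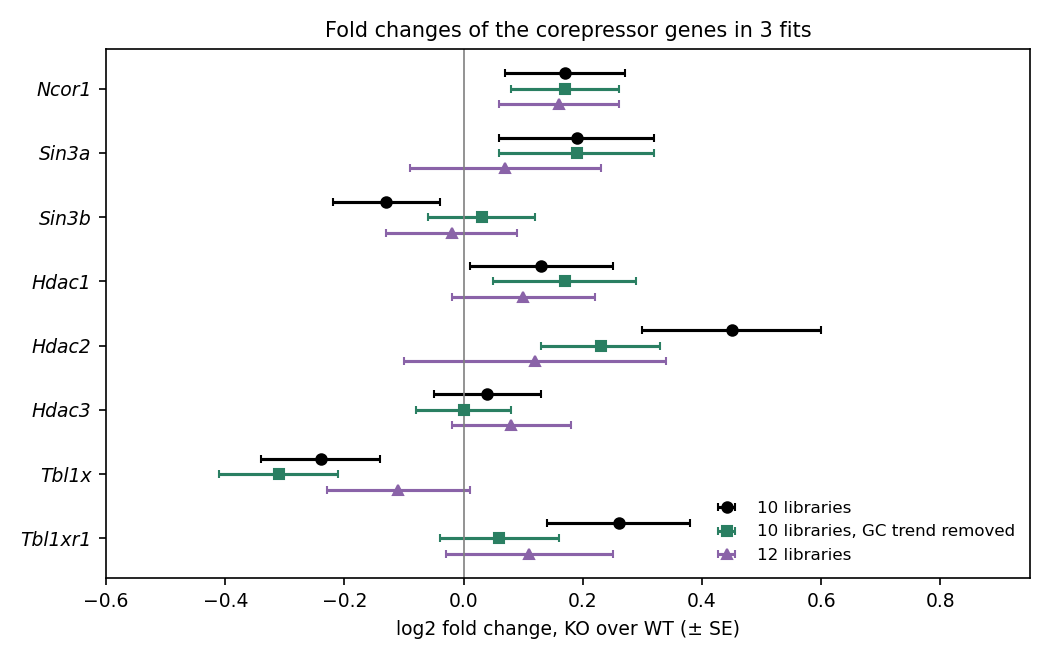
Log2 fold change of KO over WT (horizontal axis, ± SE) for the 8 genes in edgeR fits to 10 libraries (black), to 10 libraries with the GC trend removed (green) and to all 12 libraries (purple). Hdac2 lies at 0.45, 0.23 and 0.12, Tbl1xr1 at 0.26, 0.06 and 0.11, and Tbl1x at -0.24, -0.31 and -0.11.

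Ratios of related genes within a library do not depend on how libraries are scaled. They can still vary with the GC trend described below. Along it the levels of Tbl1xr1 and Tbl1x, and those of Sin3a and Sin3b, ran in opposite directions. No ratio was computed with that trend removed. The log2 ratio of Tbl1xr1 to Tbl1x, each per length, averaged -0.43 ± 0.19 in KO and -0.93 ± 0.25 in WT (SD, n = 5 each). It was -0.18 in KO3, -0.31 in KO8, -0.49 in KO6, -0.55 in KO2 and -0.64 in KO5, against -0.58 in WT3, -0.80 in WT7, -0.92 in WT5, -1.14 in WT1 and -1.20 in WT6. Only KO5 and WT3 overlapped. KO4 and WT2 had the opposite order, -0.97 in KO4 and 0.08 in WT2, and the difference of 0.49 between the groups was 0.24 over 12 libraries. The log2 ratio of Sin3a to Sin3b averaged -0.66 ± 0.36 in KO and -0.98 ± 0.29 in WT, with ranges of -1.20 to -0.34 in KO and -1.31 to -0.59 in WT. That of Hdac1 to Hdac2 averaged -4.90 ± 0.46 in KO and -4.61 ± 0.22 in WT, and its size carries the caution on Hdac1. For these last 2 ratios the groups overlapped widely, and no test was made on any of the 3.

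**Figure D3:**
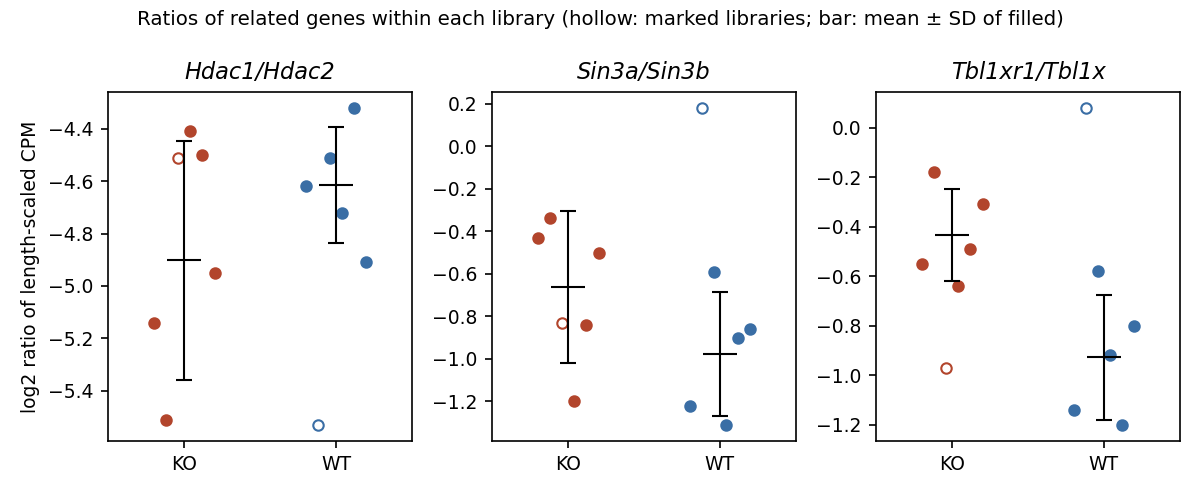
Log2 ratio of length-scaled CPM (vertical axis) for 3 pairs of related genes in each KO library (red, left) and WT library (blue, right), with the mean ± SD of the filled points and KO4 and WT2 hollow. The Tbl1xr1/Tbl1x ratio lies between -0.64 and -0.18 in the 5 filled KO libraries and between -1.20 and -0.58 in the 5 filled WT libraries.

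The order of libraries seen for Hdac2 ran against their GC trend, which was computed from the levels of all genes in these same libraries. The GC trend of a library is the log2 level of transcripts with 60% GC minus that of transcripts with 40% GC, relative to the mean of 12 libraries. It was -0.43 in KO3, -0.40 in KO2, -0.36 in KO8, 0 in KO6 and 0.38 in KO5, against 0.08 to 0.53 in the 5 WT libraries. KO4 had 0.39 and WT2 had -0.94. Among the 10 libraries compared the trend was mostly lower in KO, so its part in these differences cannot be told apart from that of genotype. Without KO5 the KO libraries compared had -0.43 to 0, all below the WT range. Hdac2 and Tbl1xr1 have the lowest GC content of the 8 genes (41.9% in the longest transcript of each), Sin3b has the highest (56.1%), and the median of genes tested is 49.3%. Tbl1x (46.0%) and Sin3a (48.3%) both lie below that median, yet their relations to the trend, given below, had opposite signs. Over 12 libraries the log2 level of Hdac2 had a Pearson r of -0.95 with the GC trend (permutation p = 1.0e-04) and a Spearman rho of -0.78 (permutation p = 0.00390). Within the 6 KO libraries r was -0.89, within the 6 WT libraries -0.97, and without KO3 and WT2, the farthest from the median GC trend, -0.88.

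Of 8 such relations, 5 had a Benjamini-Hochberg adjusted permutation p under 0.05 for both measures, namely those of Hdac2, Tbl1xr1, Sin3a, Sin3b and Tbl1x. The share of all genes with such a relation was not computed, so the count cannot be called particular to these genes. Tbl1xr1 had r = -0.89 and rho = -0.77 (adjusted permutation p = 6.8e-04 and 0.0138; r = -0.77 without KO3 and WT2), with -0.91 within KO and -0.88 within WT. Sin3a had r = -0.81 and rho = -0.77 (adjusted permutation p = 0.00242 and 0.0138; r = -0.62 without those libraries). Sin3b went the other way, with r = 0.83 and rho = 0.71 (adjusted permutation p = 0.00242 and 0.0229; r = 0.57 without them). Tbl1x had r = 0.71 and rho = 0.70 (adjusted permutation p = 0.0148 and 0.0229; r = 0.50 without them), but 0.36 within KO against 0.91 within WT. Ncor1 (r = -0.46), Hdac1 (-0.25) and Hdac3 (0.02) had adjusted permutation p of 0.175 to 0.943.

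**Figure D4:**
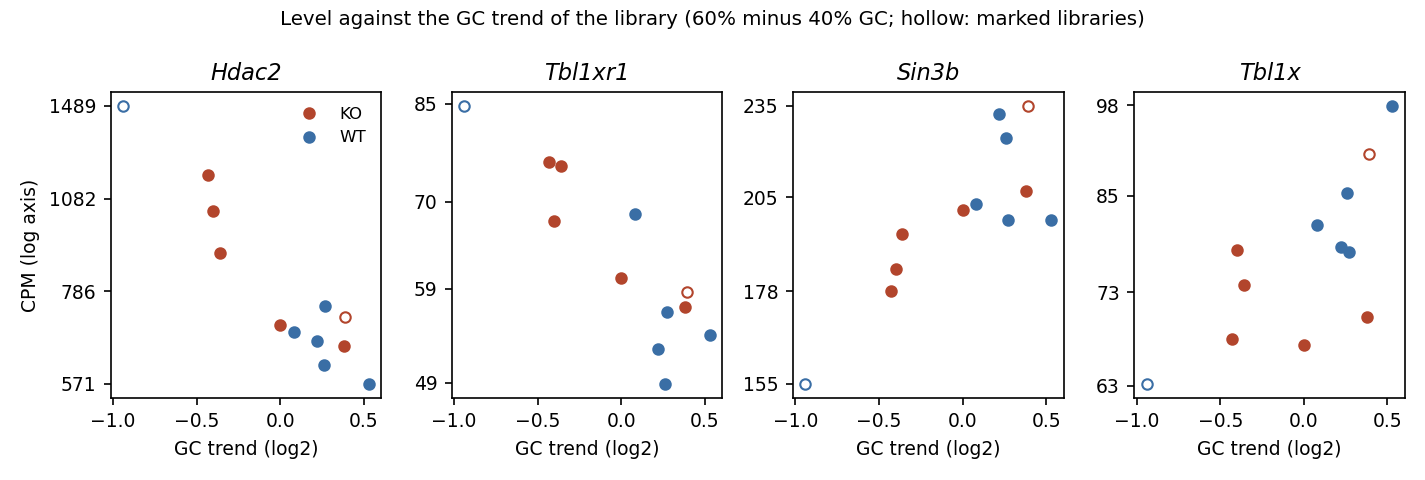
Level of Hdac2, Tbl1xr1, Sin3b and Tbl1x (vertical axis, CPM on a log scale) against the GC trend of the library (horizontal axis, log2), with KO red, WT blue and the marked libraries hollow. Hdac2 and Tbl1xr1 run downward and Sin3b upward along the axis in both groups, and for Tbl1x the 5 filled KO points, at 67.2 to 78.0 CPM, stay low across it.

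With each library's GC trend removed in the fit, the log2 difference of Hdac2 was 0.23 (SE 0.10, unadjusted p = 0.0379, adjusted p = 0.296) in place of 0.45. Tbl1xr1 had 0.06 (SE 0.10), and Sin3b turned to 0.03 (SE 0.09). Tbl1x had -0.31 (SE 0.10, unadjusted p = 0.00418, adjusted p = 0.185), further from 0 than before. Ncor1 and Sin3a had 0.17 and 0.19 as before, and Hdac1 had 0.17 in place of 0.13. The correction depends on a gene's GC content alone. Ncor1 (48.5%) and Sin3a (48.3%) lie near the median of 49.3%, where it could move them little. Their values in this fit are therefore no test of whether they vary with the trend, as the level of Sin3a did (r = -0.81). In that fit 2 of 8 genes had an unadjusted p under 0.05, Hdac2 as higher and Tbl1x as lower, beside 15.7% of genes tested, and 0 of 8 passed, beside 0.0372%.

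Summed markers of other cell types were above 0 in all libraries and overlapped between the groups, though single markers such as Sox10 and Pax2 were at 0 in some libraries. Of 9 Purkinje cell markers 7 passed the filter, and the 9 summed to 309 to 561 CPM in KO and 250 to 356 CPM in WT, with 294 in KO4 and 691 in WT2. The 10 markers of Bergmann glia and astrocytes all passed and summed to 843 to 1335 CPM in KO and 611 to 1033 CPM in WT, with 897 in KO4 and 2115 in WT2. Means of the glial markers went both ways, as for Fabp7 (688 CPM in KO, 513 CPM in WT) and Gfap (20.7 CPM in KO, 28.7 CPM in WT). Markers of meninges summed to 441 to 827 CPM in KO and 451 to 798 CPM in WT. Those of blood summed to 413 to 701 and 364 to 680 CPM, and of endothelium and pericytes to 309 to 429 and 297 to 400 CPM. No marker was at 0 in all libraries, and 0 markers of any list were called. WT2 was thus the highest library for Hdac2, Sin3a, Tbl1xr1, by a small margin Hdac1 (24.8 CPM, against 24.2 CPM in KO4), and the Purkinje cell and glial marker sums. The part of other cell types in these levels was not tested. A change in the number of cells of a type cannot be told apart from a change in RNA per cell in such samples.

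Among 12300 genes and across the 12 libraries, the pattern of log2 CPM of Hdac2 was closest to those of Gmcl1 (Pearson r = 0.989) and Hprt (0.987). The closest to Tbl1xr1 were Tspan3 (0.967) and Ncapg2 (0.962), and to Sin3b Atp6v1b2 (0.968) and Mtch2 (0.960). Sin3a was closest to Smu1 (0.946) and Pnn (0.938), Ncor1 to Tnrc6a (0.939) and Larp4b (0.915), and Tbl1x to Ubr4 (0.930) and Cspg4 (0.926). Hdac3 (Haus5, 0.888, and Rtn3, 0.875) and Hdac1 (Smad9, 0.829, and Prdm10, 0.825) had the loosest matches. These values describe 12 points and were not tested, and the GC trend varies over the same libraries.

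A further 69 genes that passed the filter, namely complex partners of the 8 genes, other histone deacetylases and histone acetyltransferases, were not called either. At an unadjusted p under 0.05, 9 of the 69 had higher levels in KO and 11 had lower levels, beside 11.8% and 9.97% of all genes tested, and their median log2 fold change was 0.01. DESeq2 called 8 of them, namely Crebbp, Tet1, Ogt, Rcor2, Kdm1a, Gse1, Mta3 and Kat7, beside 4.71% of all genes with an adjusted p in that tool. Without KO5 23 were called, in the fit that called 22.9% of all genes. With the GC trend removed 0 were called, and 15 had an unadjusted p under 0.05, beside 15.7% of genes. With all 12 libraries in the fit, 2 did, Crebbp and Kat7, beside 3.47% of genes.

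In the NCoR list of 9 genes, members included, an unadjusted p under 0.05 was found for 2 with a higher and 2 with a lower level in KO, beside the same 21.8% of all genes tested. Gps2, a small subunit of the complex, ran from 15.8 to 29.1 CPM in KO and from 18.1 to 29.6 CPM in WT. Kdm4a, a histone demethylase found with NCoR, had 41.7 ± 6.86 CPM in KO and 52.8 ± 6.47 CPM in WT (adjusted p = 0.158). Zbtb33, which encodes the methyl-DNA-binding repressor Kaiso, had 120 ± 32.1 CPM in KO and 91.7 ± 9.06 CPM in WT (adjusted p = 0.185), and its log2 fold change of 0.39 was 0.09 with the GC trend removed.

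Of 25 tested genes of the Sin3 list, 0 passed, and 4 had an unadjusted p under 0.05, beside 21.8% of all genes tested. With higher levels in KO, they were Hdac2, Tet1, Ogt and Arid4b. Tet1, which oxidises methylated cytosine and can associate with Sin3a, had 70.8 ± 17.9 CPM in KO and 47.1 ± 9.82 CPM in WT (log2 fold change 0.59, SE 0.17, adjusted p = 0.131). Ogt, the enzyme that adds GlcNAc to nuclear proteins, had 188 ± 26.9 CPM in KO and 146 ± 11.7 CPM in WT (0.36, SE 0.11, adjusted p = 0.131). For Ogt the 5 KO libraries lay above the 5 WT libraries, but WT2 was higher than all of them at 317 CPM, with KO4 at 164 CPM. Groups without overlap, in either direction, were found for 2.35% of all genes tested. Arid4b, a Sin3 subunit with an ARID domain, had 122 ± 27.6 CPM in KO and 94.3 ± 22.4 CPM in WT. With the GC trend removed the log2 fold changes were 0.43 for Tet1, 0.19 for Ogt and 0.13 for Arid4b.

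NuRD and CoREST genes other than the deacetylases included several with lower means in KO. Among 15 NuRD genes an unadjusted p under 0.05 was found for Hdac2, with a higher level, and for Mta1, Mta3 and Chd4, with lower levels, beside 21.8% of all genes tested. Mta1 and Mta3, which hold the deacetylases in NuRD, had 79.7 ± 13.9 CPM and 8.96 ± 1.29 CPM in KO, against 103 ± 11.0 and 12.9 ± 1.52 CPM in WT. The NuRD remodelling ATPase Chd4 had 131 ± 27.1 CPM in KO and 158 ± 10.6 CPM in WT. The log2 fold changes of Mta1, Mta3 and Chd4, at -0.37, -0.52 and -0.27, were -0.19, -0.41 and -0.17 with the GC trend removed. Among these genes only Mta3 then kept an unadjusted edgeR p under 0.05 (0.0143). Among 16 genes of the CoREST and MiDAC complexes 3 had higher and 4 had lower levels at that p, beside 11.8% and 9.97% of all genes tested. Those with higher levels were Hdac2, Rcor3 and Zmym2, at log2 fold changes of 0.45, 0.53 and 0.48; Rcor3 and Zmym2 were chosen after their values were seen. The scaffold Rcor2 had 128 ± 20.1 CPM in KO and 185 ± 24.4 CPM in WT, or -0.53 on the log2 scale (SE 0.12, unadjusted p = 3.6e-04, adjusted p = 0.124). Kdm1a, the histone H3 demethylase of CoREST, had 144 ± 26.6 CPM in KO and 192 ± 18.6 CPM in WT (-0.42, SE 0.12, adjusted p = 0.131), and Gse1 had 11.1 ± 2.51 CPM in KO and 18.5 ± 6.58 CPM in WT (-0.73, SE 0.22, adjusted p = 0.131). With the GC trend removed Rcor2, Kdm1a and Gse1 had -0.35, -0.34 and -0.56. In KO4 and WT2 the order was opposite for Mta1, Mta3, Chd4, Rcor2, Kdm1a and Gse1, as with 164 CPM of Rcor2 in KO4 and 83.3 CPM in WT2.

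Among the 8 other histone deacetylases, 1 had an unadjusted p under 0.05, beside 21.8% of all genes tested. It was the class IIa gene Hdac9, with 48.6 ± 14.0 CPM in KO and 33.5 ± 5.88 CPM in WT (log2 fold change 0.53, SE 0.18, adjusted p = 0.139), and 27.2 CPM in KO4 and 96.1 CPM in WT2. Hdac5 and Hdac11 had log2 fold changes of -0.10 (SE 0.11) and 0.24 (SE 0.26). Of 10 histone acetyltransferases, the enzymes that work against deacetylases, 2 had higher and 3 had lower levels at an unadjusted p under 0.05, beside 11.8% and 9.97% of all genes tested. Crebbp and Ep300, which encode the coactivators CBP and p300, had 126 ± 16.7 and 55.7 ± 9.71 CPM in KO, against 92.3 ± 18.8 and 43.2 ± 7.83 CPM in WT (log2 fold changes 0.45 and 0.37, adjusted p = 0.131 and 0.161). Kat7, an acetyltransferase of the MYST family, had 38.1 ± 6.21 CPM in KO and 54.3 ± 4.77 CPM in WT (-0.51, SE 0.12, adjusted p = 0.124). Its groups did not overlap among the 10 libraries, as was found for 2.35% of all genes tested. The log2 fold change of Kat7 was -0.47 with the GC trend removed and -0.34 over 12 libraries (edgeR adjusted p = 0.133 and 0.999), where KO4 had 47.6 CPM and WT2 had 30.1 CPM.

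**Figure D5:**
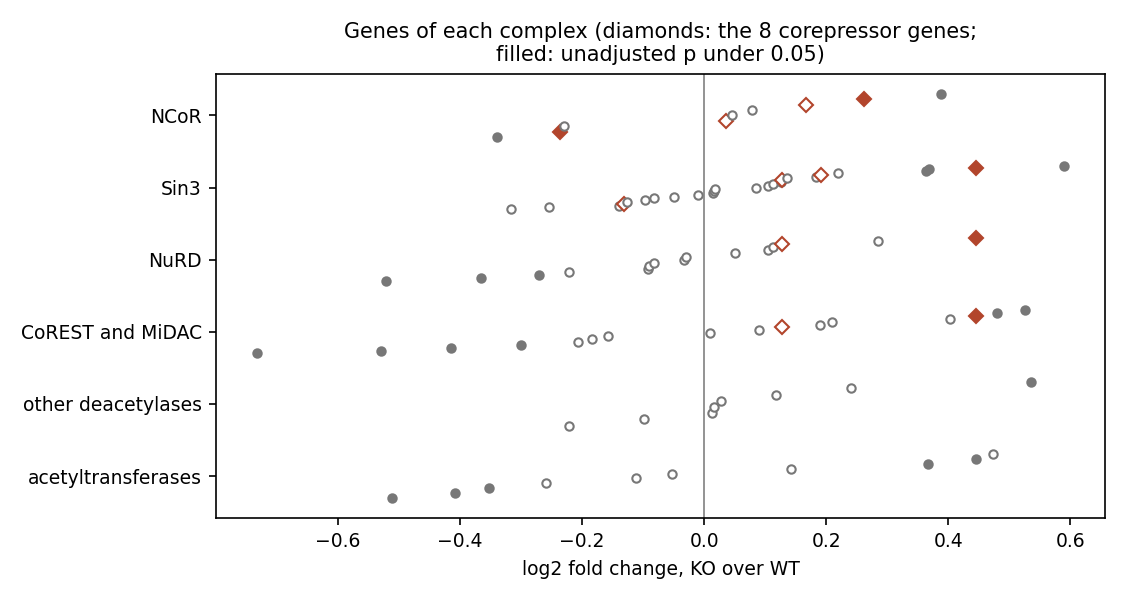
Log2 fold change of KO over WT (horizontal axis) for every tested gene of 6 lists of complexes and enzymes, with the 8 corepressor genes as red diamonds, other genes as grey circles and filled symbols for an unadjusted p under 0.05. Genes shared by complexes appear once per list, as Hdac2 at 0.45 does in 3 of them.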

How the data were processed

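RNA was measured in 12 libraries of external granule layer. The deposited values are raw counts of reads per gene, 1 table per library, with 53379 gene rows and 5 summary rows, which were left out. The submitters' processing notes list HTSeq 0.6.1, STAR 2.5.3a, cutadapt 1.16, DESeq2 and the mm10 build. Settings, annotation release and strand setting are not given in these sources. Per the labels' protocols the kit was a NEBNext Ultra kit. Reads placed in several positions were 64.4% to 67.6% of records. Identifiers were matched without version to GENCODE M21 (53274 matched).

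Genes were filtered with filterByExpr (minimum count 10), scaled with TMM factors and tested with edgeR 4.0.16's quasi-likelihood test (R 4.3.3), with p-values adjusted by Benjamini and Hochberg over 13442 genes. SE is the log2 fold change over the root of the F statistic. Levels use factors over 12 libraries. Permutation tests used log2(CPM + 1). Single members had 178 to 12594 counts per library, and counting error is largest for Hdac1, the member with the fewest. Alternatives used DESeq2 1.42.0, limma 3.58.1, other factors and filters, a covariate for sex, a GC trend offset (spline with 5 degrees of freedom), a replicate block and each library left out. Libraries of a group differed by far more than sampling noise in all 30 pairs (chi-square per degree of freedom 6.51 to 94.1). The genes named are Skil, the 8 members, Gps2, the 3 non-members with the smallest p of each list, and the 2 genes most like each member. 1 gene of the lists is not reported here. Members and lists were chosen with earlier results of these data known.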

Additional observations from a re-analysis of the deposited data

Results flagged for a closer look

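In KO5, 3 genes of the NuRD and CoREST complexes stood apart from the other 4 KO libraries of the comparison by a large gap for a group of 5. Mta1 was at 104 CPM in KO5 and at 69.2 to 77.3 CPM in the others. Chd4 was at 179 CPM in KO5 and at 110 to 124 CPM in the others. Kdm1a was at 190 CPM in KO5 and at 128 to 142 CPM in the others. These are 3 of 60 groups of values examined, and chance alone gives about 5% of groups such a gap.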

How the results depend on the processing

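The number of genes called over the transcriptome was 3, and 1 with all 12 libraries, 0 with KO2 counted as wild type, 470 in DESeq2, 965 with no filter on low counts and 5 with the GC trend removed. Leaving out each library gave 0 to 3102, the highest without KO5. The number of corepressor genes called was 0, and 1 with no filter and 0 to 2 with each library left out. Partner genes called were 0, and 8 in DESeq2, 12 with no filter and 0 to 23 with each library left out. The median log2 fold change of the 8 genes was 0.15 (0.12 to 0.18 with each library left out), and it was 0.09 with all 12 libraries, 0.08 with KO2 counted as wild type, and 0.06 both with library size alone and with the GC trend removed in 12 libraries. The Tbl1xr1/Tbl1x difference of 0.49 was 0.24 over 12 libraries. Correlations of deviations from the group mean were -0.05 to 0.11 over 3 KO and WT pairs with equal replicate numbers. Over the 22 other pairs they were -0.23 to 0.28. So few pairs cannot show whether equal numbers mark a shared source, which the labels do not state. A fit with the replicate number as a block, on 6 libraries, called 0 genes and gave a median of 0.03 for the 8 genes. Log2 fold changes turned in sign for Hdac3 (-0.05 with library size alone, -0.00347 with the GC trend removed, -0.07 with the block, -6.0e-04 to 0.08 with each library left out, the lowest without KO8) and Sin3b (0.03 and 0.05 with the GC trend removed in 10 and 12 libraries). With 12 libraries Chd4 (0.01) and Hdac5 (0.02) turned, and with the GC trend also removed Chd4 (0.06), Hdac5 (0.10), Gps2 (0.06) and Zbtb33 (-0.00450); Hdac5 was 0.10 in 10 libraries as well. The cause was not tested. The other 6 corepressor genes kept their direction in all 22 alternatives. Library size alone moved the median of all genes by -0.08.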
